A study of Mus musculus with 8 samples.

Results

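The 48 genes described here were listed as genes of germ cells, of meiosis or of the piRNA pathway. All are protein-coding. They were chosen by gene symbol from what is known of their function, with earlier results of these data already known. Shares of the list set beside those of all genes are therefore descriptions. Each gene was matched to 1 row of a table of 22274 genes. They divide by role into 12 regulators of germ cell identity and entry into meiosis, 10 genes of the synaptonemal complex, chromosome axis and cohesin, 6 genes of meiotic recombination, 14 genes of the piRNA pathway and transposon silencing, and 6 genes grouped here as other testis-expressed genes. Expression of these 6 in the testis was not examined here. Genes without a single read stay in every tally below. The genes lie on 18 chromosomes, with 2 genes on X, and coordinates are those of GENCODE M21 on GRCm38. Exons of 7 of them, Nanos2, Ctcfl, Sycp3, Tdrd5, Tdrkh, Piwil4 and Dpep3, overlap a gene on the opposite strand.

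The cells were RFB, a mouse kidney line labelled as fibroblast, and transcripts were counted by RNA sequencing in 8 libraries. All 8 were treated with TGF-β, the main profibrotic cytokine: 4 libraries had it alone, and 4 had it together with chaetocin. This compound, made by fungi, is used to inhibit SUV39 family methyltransferases, enzymes that place the silencing mark on lysine 9 of histone H3, and it also acts on other enzymes. The series' design text mentions cells with SUV39H1 knocked down, which no label of these libraries mentions, and the labels read here give no strain, dose or time. No library without TGF-β was analysed here. Nothing in the labels says that the libraries of a group came from separate cultures, and the spread that the p-values rest on may therefore be technical. Total counts were 20135312 to 23664084 with TGF-β alone, 22591935 in chaetocin replicate 1 and 14421225 to 15084876 in the other 3 chaetocin libraries. Levels are given as read counts and as CPM, counts after scaling to library size. The fibroblast label was checked against 10 markers, and the answer was mixed. With TGF-β alone, Vim, a cytoskeletal protein of mesenchymal cells, was at 1163 ± 30.2 CPM, the collagen genes Col1a1 and Col1a2 were at 233 ± 10.6 and 60.2 ± 5.93 CPM, and the growth factor receptor Pdgfrb was at 14.6 ± 0.979 CPM (SD, n = 4). Dcn and Lum, matrix proteins of fibroblasts, were near 0, at 0.129 ± 0.0556 and 0.0123 ± 0.0247 CPM, while Epcam and Cdh1, surface proteins of epithelial cells, were at 285 ± 7.44 and 651 ± 8.10 CPM.

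Germ cells pass through a programme that other tissues keep silent. In meiosis, cohesin and axis proteins fold each chromosome into loops, SPO11 makes the double-strand breaks that start recombination, and the synaptonemal complex holds paired chromosomes together. In the same cells, PIWI proteins carry piRNAs, short RNAs that guide the cutting and silencing of transposons, and tudor domain proteins assemble them in granules beside the nucleus. In somatic cells many of these genes are held off by DNA methylation at their promoters, by methylation of lysine 9 of histone H3, and by a variant Polycomb complex that holds E2F6, MGA, MAX and L3MBTL2.

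With chaetocin, transcripts of 19 of these 48 genes rose and none was called lower. The rises ran from Tdrkh, at a log2 fold change of 0.33, to Tex14, at 6.96, and genes without a read under TGF-β alone. Of the 48, 22 had enough reads for the test, and 19 of these were called higher (edgeR, Benjamini-Hochberg adjusted p under 0.05 over all 14608 tested genes). The other 3 tested genes, Syce2, Stag3 and Mei4, were not called, 23 genes fell below the filter on low counts, and 3 genes, Hormad1, Piwil1 and Rpl10l, had 0 counts in all 8 libraries. The background of this comparison is high: 42% of all tested genes were called higher and 38.8% lower. Among tested genes under 1 CPM with TGF-β alone, 86.9% were called higher and 1.11% lower, since a gene that passes the filter from such a level does so mostly through the group where it is high. Of the germline genes, 15 of the 22 tested lay under 1 CPM, and 14 of these 15 were called higher, close to that share. Among tested genes at 1 CPM or more, 34.2% were called higher and 45.3% lower, and 5 of the 7 germline genes there, Tdrd7, Rec8, Tdrkh, Tdrd5 and Tex15, were called higher. The number called lower was also 0 at an unadjusted p under 0.05 in edgeR, with DESeq2 and with limma-voom.

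The sizes of the differences were read the same way. The median log2 fold change was 2.80 over the 22 tested germline genes and 0.02 over all tested genes. For those under 1 CPM with TGF-β alone it was 4.27 over 15 germline genes and 2.93 over all 2160 such genes. At 1 CPM or more it was 0.89 over 7 germline genes and -0.08 over all 12448. Within each range the germline genes and all genes were not matched on level. The 15 include Syce1, Tex19.1 and Hormad2, without a read under TGF-β alone, whose fitted folds are not sizes. A call with a fold of at least 2 was made for 17 of the 22 tested germline genes, against 19.7% of all tested genes. That share is not matched on level, and 15 of the 22 lay under 1 CPM with TGF-β alone.

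**Figure D1:**
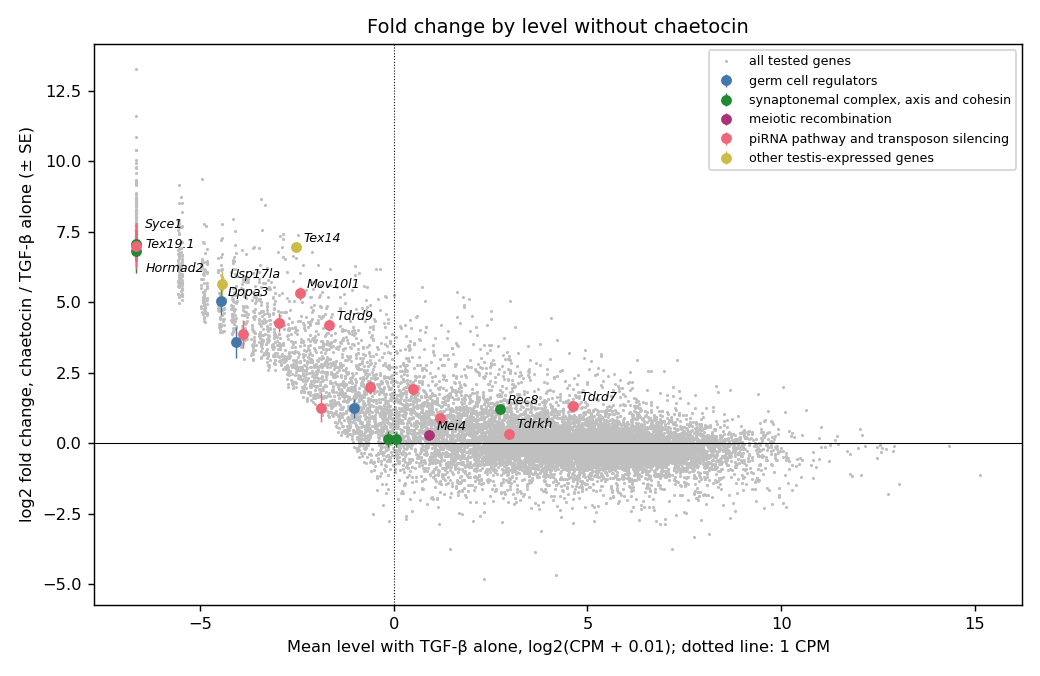
Log2 fold change of each tested gene (chaetocin over TGF-β alone, ± SE for the germline genes) against its mean level with TGF-β alone on a log2(CPM + 0.01) axis, germline genes coloured by role and all 14608 tested genes in grey. The germline genes with low levels lie within the upward spread of other low genes; the fitted folds of Syce1, Tex19.1 and Hormad2, at 0 counts with TGF-β alone, depend on the prior count of the fit and are not sizes.

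Because most of the list lies at low counts, the same test was also run with no filter. Of 45 germline genes with a read, 30 were then called higher and 0 lower (edgeR, no filter), against 40.5% higher and 30.9% lower over all 19608 genes with a read. The mean CPM was higher with chaetocin in 44 of the 48 genes and lower in 1, Slc25a31. The CPM values of the 2 groups did not overlap in 30 genes, in all 30 with chaetocin higher. Over all rows of the table the groups stood apart upward in 32.1% and downward in 23.6%. The shares over all genes with a read and over all rows are not matched on level. With TGF-β alone 16 of the genes had 0 counts in all 4 libraries, and 9 of these 16 had reads in all 4 chaetocin libraries, against 15.8% of the 5288 rows that were at 0 with TGF-β alone. Of those 5288 rows, 2666 had 0 counts in all 8 libraries, as had 3 of the 16 genes. In the authors' deposited table, whose test is not named there, 28 of the 48 had an FDR under 0.05, all 28 higher with chaetocin. The share over all rows of that table was not counted, so these 28 have no background beside them.

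More germline genes had reads in the chaetocin libraries, as did more genes of the whole table. At least 1 read was counted for 24 to 28 of the 48 genes in the TGF-β libraries and for 39 to 43 in the chaetocin libraries, or 50% to 58.3% and 81.2% to 89.6%. Over all 22274 rows of the table the same minimum was met by 70.0% to 71.1% and by 80.5% to 82.8%. At least 10 reads were counted for 9 to 10 germline genes and for 20 to 27, against 59.1% to 59.6% and 65.6% to 68.4% of all rows. Of the chaetocin libraries, 3 were the shallowest of the study. Summed over the 48 genes, the level was 47.9 to 52.2 CPM with TGF-β alone and 154.0 to 159.8 CPM with chaetocin. Without Tdrd7 and Rec8, which have the highest mean CPM over the 8 libraries, the sums were 18.13 to 19.07 CPM and 75.3 to 81.4 CPM. The levels stayed low: with chaetocin 17 of the 48 genes reached a mean of 1 CPM, against 7 with TGF-β alone, and 31 were under 1 CPM in both groups. Whether a few cells held many of these transcripts or many cells a few cannot be told apart in bulk RNA.

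**Figure D2:**
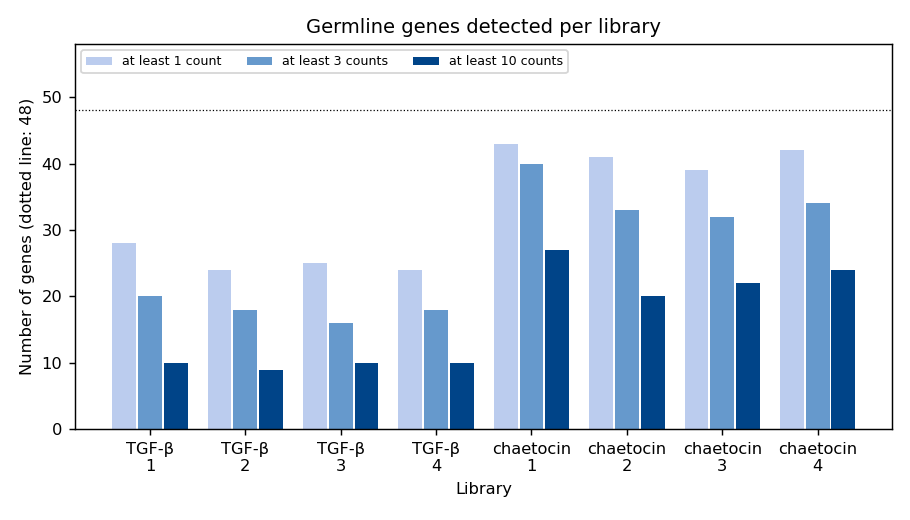
Number of the 48 germline genes with at least 1, 3 and 10 reads in each of the 8 libraries, with a dotted line at 48. All 4 chaetocin libraries exceed all 4 TGF-β libraries at each of the 3 minimums, for example 39 to 43 against 24 to 28 genes with at least 1 read; over all rows of the table, not drawn, the shares with at least 1 read were 80.5% to 82.8% against 70.0% to 71.1%.

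Promoter sequence was examined because the silencing complex named above reads 2 short motifs. MGA and MAX bind the E-box CACGTG, and E2F6 binds TCCCGC, found as GCGGGA on the other strand. RefSeq promoter windows (GRCm38.p6, 250 bases before to 50 after the start site) were matched to 40 of the 48 genes. Ctcfl, Dppa3, Meiob, Piwil2, Spo11, Tdrd6, Tex11 and Tex15 were not matched. The E-box stood in a window of 15 of the 40 genes, 37.5%, against 8.91% of 17492 protein-coding genes and 8.09% of all 27025 genes with a window. TCCCGC on either strand also stood in 15 of the 40, 37.5%, against 28.4% of protein-coding genes. Either motif was held by 22 of the 40 genes, 55%, and by 33.7% of protein-coding genes. CpG-rich windows, with an observed over expected CpG ratio of at least 0.6 and a GC content of at least 50%, made up 55% of the germline genes and 48.3% of protein-coding genes.

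Neither motif was more frequent among the genes called higher. Among the 24 matched genes called higher with no filter, 8 held the E-box (33.3%), 6 held TCCCGC (25%) and 14 were CpG-rich (58.3%). Among the other 16 matched genes, 7 held the E-box (43.8%), 9 held TCCCGC (56.2%) and 8 were CpG-rich (50%). A match is a description of the letters and not a measure of binding.

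**Figure D3:**
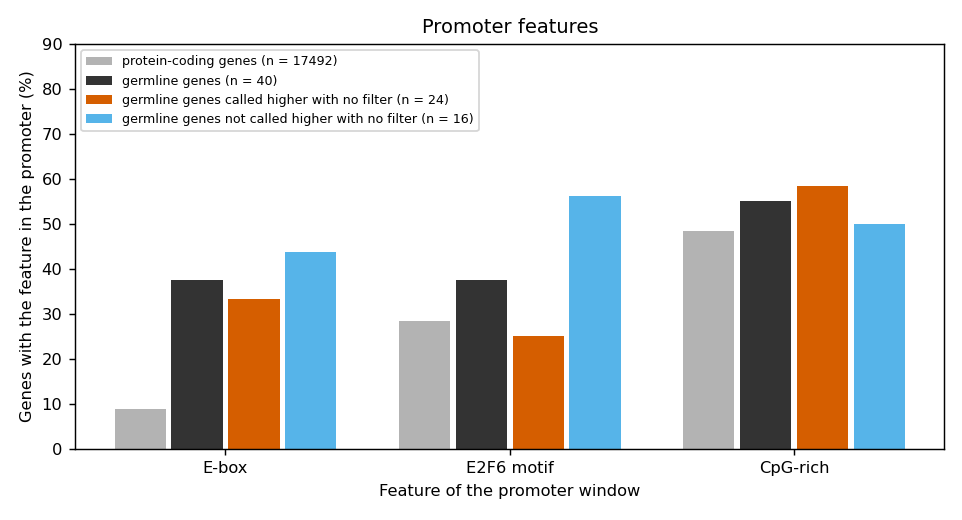
Share of genes whose promoter window holds the E-box, the E2F6 motif on either strand, or is CpG-rich, for all protein-coding genes (grey, n = 17492), the matched germline genes (black, n = 40), and these split by whether the test with no filter called them higher (orange, n = 24) or not (blue, n = 16). The E-box share is 37.5% in the germline genes against 8.91% of protein-coding genes, and it is 33.3% and 43.8% in the 2 subsets.

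The following stretches upstream of 6 start sites show this variety: Tex14, Mov10l1, Tdrd9 and Tex19.1 were called higher and hold a match, Hormad1 had 0 counts with 3 matches, and Usp17la was called higher with no match. Each is given 5′ to 3′ on the plus strand of GRCm38.p6 from RefSeq, and capitals mark a motif match. Bases within annotated exons are left off, except where a motif match reaches into an exon.
Tex14 (chr11:87404954-87405064): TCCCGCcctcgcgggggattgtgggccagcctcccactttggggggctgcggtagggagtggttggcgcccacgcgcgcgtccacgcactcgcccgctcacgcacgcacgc
Mov10l1 (chr15:88982744-88982908): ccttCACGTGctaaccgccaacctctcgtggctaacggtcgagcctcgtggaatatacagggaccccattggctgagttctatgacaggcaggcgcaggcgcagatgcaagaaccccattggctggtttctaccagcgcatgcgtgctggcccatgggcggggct
Tdrd9 (chr12:111971309-111971558): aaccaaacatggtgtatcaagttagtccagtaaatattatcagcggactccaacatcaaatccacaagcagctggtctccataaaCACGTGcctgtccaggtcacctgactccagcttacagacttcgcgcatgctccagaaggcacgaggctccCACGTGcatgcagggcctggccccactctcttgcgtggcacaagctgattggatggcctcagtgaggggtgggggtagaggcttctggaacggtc
Tex19.1 (chr11:121145893-121146142): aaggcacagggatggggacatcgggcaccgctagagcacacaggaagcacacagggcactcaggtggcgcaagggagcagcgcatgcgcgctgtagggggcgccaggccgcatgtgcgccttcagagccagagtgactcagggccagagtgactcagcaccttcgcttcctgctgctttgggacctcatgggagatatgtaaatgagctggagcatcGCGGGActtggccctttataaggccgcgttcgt
Hormad1 (chr3:95559427-95559676): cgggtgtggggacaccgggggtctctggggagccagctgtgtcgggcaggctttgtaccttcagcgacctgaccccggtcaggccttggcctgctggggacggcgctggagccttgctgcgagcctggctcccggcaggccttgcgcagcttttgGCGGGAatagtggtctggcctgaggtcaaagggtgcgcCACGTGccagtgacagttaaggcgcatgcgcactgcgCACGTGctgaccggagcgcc
Usp17la (chr7:104856766-104857008): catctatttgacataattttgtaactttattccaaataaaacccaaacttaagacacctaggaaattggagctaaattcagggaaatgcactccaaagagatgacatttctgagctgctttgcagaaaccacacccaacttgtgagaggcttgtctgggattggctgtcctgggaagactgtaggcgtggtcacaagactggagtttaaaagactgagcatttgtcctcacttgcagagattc

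The stretch of Tex14 begins at its motif match, beside or just inside the first exon of Rad51c on the opposite strand. The 2 genes thus start head to head. Rad51c, a recombination gene named here after its values were seen, was also called higher, with a log2 fold change of 2.04 from 0.685 CPM (edgeR, Benjamini-Hochberg adjusted p = 7.8e-08). Under 1 CPM with TGF-β alone, 86.9% of all tested genes were called higher, and the median log2 fold change there was 2.93. A link between the rises of Tex14 and Rad51c was not tested.

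**Figure D4:**
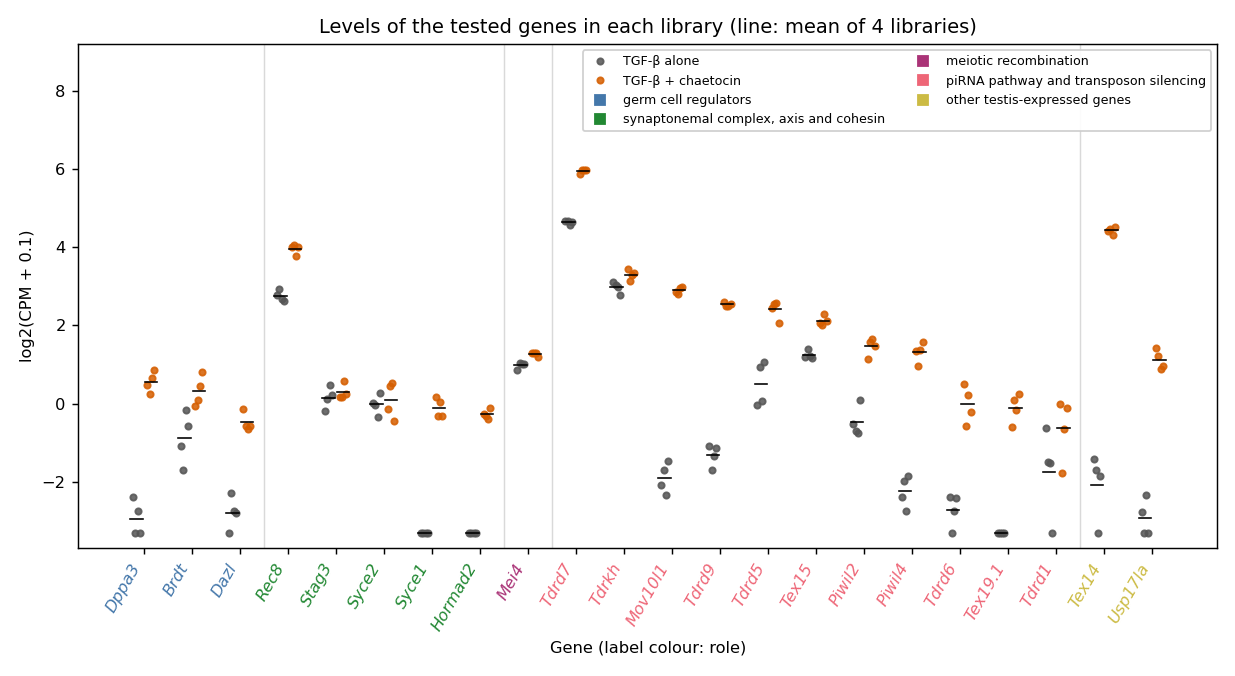
Level of each of the 22 tested germline genes in each library on a log2(CPM + 0.1) axis, grey points for TGF-β alone and orange for TGF-β with chaetocin, with a line at the mean of 4 libraries and gene labels coloured by role. Tex14 shows the widest gap among genes with reads in both groups, while Syce2 and Stag3 overlap.

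Among the regulators of germ cell identity, 3 of 12 genes passed the filter and all 3 were called higher. All 3 lay under 1 CPM with TGF-β alone, where 86.9% of all tested genes were called higher. Dppa3 (ENSMUSG00000046323, chromosome 6, 122626410 to 122630272), which protects maternal DNA methylation in the early embryo, had 2, 0, 1 and 0 reads in the TGF-β libraries and 30, 17, 22 and 27 in the chaetocin libraries. The pooled ratio of scaled counts was 38.6, with a 95% counting interval of 12.8 to 191 (exact binomial), and the edgeR Benjamini-Hochberg adjusted p was 5.2e-10. The 2 groups were far apart. Dazl (ENSMUSG00000010592, chromosome 17, 50279395 to 50293636), an RNA-binding protein that licenses germ cells to develop, had 0, 2, 1 and 1 reads with TGF-β alone and 19, 9, 8 and 9 with chaetocin. Its log2 fold change was 3.58 ± 0.55 (SE), at an edgeR adjusted p of 1.3e-06 (Benjamini-Hochberg). Every chaetocin library of Dazl exceeded every TGF-β library. Brdt (ENSMUSG00000029279, chromosome 5, 107331159 to 107387058), the testis-specific reader of acetylated histones, was at 0.367, 0.206, 0.790 and 0.572 CPM with TGF-β alone and 0.854, 0.959, 1.27 and 1.66 CPM with chaetocin. The groups of Brdt lay close together without overlap, and the log2 fold change was 1.24 ± 0.34 (SE), at an edgeR adjusted p of 0.0015 (Benjamini-Hochberg).

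The other 9 regulators were below the filter, and the test with no filter called 5 of them higher. That test called 40.5% of all genes with a read higher. Stra8, the retinoic acid target that starts meiosis, had 0 reads in all TGF-β libraries and 12, 5, 19 and 17 with chaetocin, at least 21.3-fold higher when the TGF-β group is set to 3 counts in all. Such a bound, here and below, takes the chaetocin count as exact and is not a 95% limit. Ddx4, the VASA helicase of germ granules, had 3, 1, 0 and 3 reads and then 32, 7, 16 and 27, a ratio of 14.1 (95% counting interval 6.56 to 36.3). For both genes the groups were separate, with edgeR adjusted p-values of 4.3e-10 and 5.8e-10 with no filter. Sohlh1 and Sohlh2, paired transcription factors of early spermatogonia and oocytes, went from 0 to at most 3 and 5 reads per library, and Taf7l, a testis relative of a general transcription factor subunit, from 0 to at most 3. These 3 were at least 2.82, 6.03 and 3.22-fold higher against the same floor. Nanos2 and Nanos3, RNA-binding proteins of early germ cells, Zfp42, a pluripotency marker, and Ctcfl, the testis relative of CTCF, had at most 3 reads in any library and were not called.

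The synaptonemal complex, axis and cohesin genes did not move as 1 block: 5 of 10 were tested, 3 were called higher and 2 were not called. Of all tested genes 42% were called higher, and 86.9% of those under 1 CPM with TGF-β alone, where Syce1, Hormad2 and Syce2 lay. Syce1 (ENSMUSG00000025480, chromosome 7, 140777229 to 140787852), a central element protein, had 0 reads in every TGF-β library and 24, 11, 14 and 11 with chaetocin. It was at least 24.1-fold higher (edgeR, Benjamini-Hochberg adjusted p = 9.8e-09). Hormad2 (ENSMUSG00000020419, chromosome 11, 4345814 to 4441105), which marks unpaired chromosome axes, went from 0 reads to 17, 11, 10 and 13, at least 20.5-fold higher (edgeR, Benjamini-Hochberg adjusted p = 2.4e-08). Both genes were thus read in every chaetocin library and in no TGF-β library. Hormad1, the relative of Hormad2, had 0 reads in all 8 libraries, which allows up to 0.128 to 0.200 CPM depending on the library. The motif matches upstream of the Hormad1 start are shown above.

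Rec8 (ENSMUSG00000002324, chromosome 14, 55618037 to 55625395), the meiotic kleisin that closes the cohesin ring, was already present with TGF-β alone. It was at 6.80, 7.58, 6.27 and 6.12 CPM there and at 15.9, 16.4, 13.5 and 15.9 CPM with chaetocin, and the groups did not overlap. The log2 fold change was 1.21 ± 0.09 (SE), at an edgeR adjusted p of 1.8e-12 (Benjamini-Hochberg). Stag3, a partner of Rec8 in meiotic cohesin, was at 1.03 ± 0.208 CPM with TGF-β alone and 1.13 ± 0.181 CPM with chaetocin (SD, n = 4), and its groups overlapped (log2 fold change 0.13 ± 0.25 SE, adjusted p = 0.63 by edgeR). Smc1b, the meiotic form of a cohesin core subunit, had 1 to 2 reads per TGF-β library and 1 to 5 per chaetocin library, below the filter. Its pooled ratio was 3.38 (95% counting interval 1.15 to 12.0), and it was not called with no filter (edgeR adjusted p = 0.066). Syce2, which pairs with the other central element proteins, was at 0.897 ± 0.168 and 1.02 ± 0.344 CPM (log2 fold change 0.14 ± 0.28 SE, adjusted p = 0.64 by edgeR). The differences between Rec8 and Stag3, Smc1b or Syce2 were not tested.

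Of the synaptonemal filaments themselves, Sycp1, the transverse filament protein, had a total of 1 read with TGF-β alone and 9, 8, 5 and 2 reads with chaetocin, a ratio of 29.0 (95% counting interval 4.72 to 1191). It was called higher with no filter (edgeR adjusted p = 5.2e-05). Sycp2 and Sycp3, the lateral element proteins, had ratios of 1.57 (0.842 to 2.96) and 1.46 (0.761 to 2.84), and neither was called. Exons of Sycp3 share 660 bases with Chpt1 on the opposite strand, and nothing read here says whether strand was used in counting.

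Of the 6 meiotic recombination genes, 1 passed the filter and it was not called, while the test with no filter called 3 of the 6 higher. Over all genes with a read, the share called higher with no filter was 40.5%. Mei4, needed for break formation, was at 1.70, 1.96, 1.93 and 1.94 CPM with TGF-β alone and 2.35, 2.36, 2.33 and 2.17 CPM with chaetocin. Its groups did not overlap, but the log2 fold change of 0.30 ± 0.18 (SE) missed the threshold (edgeR, Benjamini-Hochberg adjusted p = 0.13). Under scaling by total count Mei4 was called higher, at a log2 fold change of 0.41 (edgeR adjusted p = 0.038). Spo11, the enzyme that makes the breaks, had 3, 2, 3 and 4 reads with TGF-β alone and 13, 14, 6 and 13 with chaetocin, a ratio of 4.63 (95% counting interval 2.41 to 9.59). Mei1, also needed for breaks, went from 0 reads to 10, 5, 5 and 4, at least 9.65-fold higher. Meiob, a single-strand DNA binding protein, had 2 reads in all with TGF-β alone and 6, 7, 5 and 5 with chaetocin, a ratio of 13.9 (3.43 to 121). Spo11, Mei1 and Meiob were thus separate between the groups, with edgeR adjusted p-values of 1.1e-04, 6.3e-06 and 2.7e-04 with no filter. Dmc1, the meiotic strand exchange recombinase, had 1 to 6 reads per library across both groups and was not called, with a ratio of 1.96 (0.753 to 5.46). Tex11, an X-linked crossover gene, had at most 2 reads in any library.

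The piRNA pathway had the most tested genes, 11 of 14, and all 11 were called higher. Mov10l1, Tdrd1, Tdrd6, Tdrd9, Piwil2, Piwil4 and Tex19.1 lay under 1 CPM with TGF-β alone, where 86.9% of all tested genes were called higher. At 1 CPM or more, where Tdrd5, Tdrd7, Tdrkh and Tex15 lay, that share was 34.2%. Mov10l1 (ENSMUSG00000015365, chromosome 15, 88982909 to 89055152), the helicase that feeds piRNA precursors into processing, was at 0.138, 0.206, 0.0988 and 0.264 CPM with TGF-β alone. With chaetocin it was at 7.13, 6.90, 7.60 and 7.84 CPM. The groups were far apart and each was tight, and the log2 fold change was 5.32 ± 0.23 (SE), at an edgeR adjusted p of 5.6e-18 (Benjamini-Hochberg). Tdrd9 (ENSMUSG00000054003, chromosome 12, 111971559 to 112068854), a tudor domain helicase that works with PIWIL4, was at 0.367, 0.206, 0.296 and 0.352 CPM and then at 5.98, 5.56, 5.54 and 5.74 CPM. Its log2 fold change was 4.18 ± 0.21 (SE), at an edgeR adjusted p of 3.8e-16 (Benjamini-Hochberg), again without overlap.

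The PIWI proteins differed in their counts. Piwil4 (ENSMUSG00000036912, chromosome 9, 14696230 to 14740733), the nuclear PIWI that directs DNA methylation of transposons in fetal germ cells, had 2, 3, 1 and 4 reads with TGF-β alone and 57, 29, 37 and 45 with chaetocin. Its log2 fold change was 4.27 ± 0.34 (SE), at an edgeR adjusted p of 5.8e-12 (Benjamini-Hochberg). Piwil2 (ENSMUSG00000033644, chromosome 14, 70372477 to 70429383), the cytoplasmic PIWI that cuts transposon RNA, was at 0.597, 0.515, 0.494 and 0.968 CPM and then at 2.09, 2.88, 3.07 and 2.68 CPM. Both were higher in every chaetocin library than in any TGF-β library, and for Piwil2 the log2 fold change was 2.01 ± 0.24 (SE), at an edgeR adjusted p of 2.6e-08 (Benjamini-Hochberg). Piwil1, the PIWI of late meiosis, had 0 reads in all 8 libraries.

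Of the tudor domain genes, Tdrd7 (ENSMUSG00000035517, chromosome 4, 45965334 to 46034761), a granule protein also known from the lens, had the most reads. It was at 25.6, 25.5, 23.5 and 24.7 CPM with TGF-β alone and at 58.9, 62.3, 62.8 and 62.6 CPM with chaetocin. The groups were well apart, with a log2 fold change of 1.31 ± 0.05 (SE), at an edgeR adjusted p of 4.3e-20 (Benjamini-Hochberg). Tdrd5 (ENSMUSG00000060985, chromosome 1, 156255296 to 156303664), a granule organizer in spermatocytes, was at 0.873, 1.80, 0.938 and 1.98 CPM and then at 5.38, 5.75, 5.87 and 4.08 CPM, again without overlap (log2 fold change 1.91 ± 0.21 SE, adjusted p = 2.7e-09 by edgeR). Tdrd6 (ENSMUSG00000040140, chromosome 17, 43615335 to 43630299), a large scaffold of the spermatid granule, had 2, 0, 1 and 2 reads and then 31, 9, 16 and 12. For Tdrd6 the log2 fold change was 3.88 ± 0.51 (SE), at an edgeR adjusted p of 9.4e-08 (Benjamini-Hochberg), and the groups did not overlap.

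The calls of Tdrkh and Tdrd1 were the least firm. Tdrkh (ENSMUSG00000041912, chromosome 3, 94413273 to 94434668), the mitochondrial partner of PIWI proteins in piRNA trimming, was at 8.59, 8.14, 7.80 and 6.78 CPM with TGF-β alone and at 10.7, 8.76, 9.74 and 9.95 CPM with chaetocin. The groups nearly touched, and the log2 fold change was 0.33 ± 0.10 (SE), at an edgeR adjusted p of 0.0034 (Benjamini-Hochberg). On the deposited FPKM values it was not called, with adjusted p-values of 0.25 to 0.30 in limma. Exons of Tdrkh share 2255 bases with Oaz3 on the opposite strand, a gene counted at 0 to 7 reads per library. Tdrd1, a scaffold of granules between mitochondria, had 12, 5, 5 and 0 reads and then 21, 3, 8 and 13, overlapping groups, with a log2 fold change of 1.27 ± 0.51 (SE), at an edgeR adjusted p of 0.026 (Benjamini-Hochberg). Its call was lost without TGF-β replicate 3 or 4 or without chaetocin replicate 1 or 4, at edgeR adjusted p-values of 0.053, 0.11, 0.14 and 0.075, and with DESeq2 (adjusted p = 0.090).

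Outside the PIWI and tudor families, Tex15 (ENSMUSG00000009628, chromosome 8, 33516738 to 33585582), needed for DNA methylation of transposons by the PIWIL4 pathway, was at 2.20, 2.53, 2.22 and 2.16 CPM and then at 4.06, 3.90, 4.80 and 4.21 CPM. All chaetocin libraries were higher, with a log2 fold change of 0.89 ± 0.15 (SE), at an edgeR adjusted p of 6.7e-06 (Benjamini-Hochberg). Tex19.1 (ENSMUSG00000039329, chromosome 11, 121146143 to 121148319), which restrains retrotransposons in germ cells and placenta, had 0 reads in every TGF-β library and 13, 15, 12 and 17 with chaetocin. It was at least 22.9-fold higher (edgeR, Benjamini-Hochberg adjusted p = 2.4e-08). Asz1, a mitochondrial anchor of the pathway, went from 0 reads to 7, 6, 0 and 3, and Mael, a germ granule protein, from 0 to 3, 0, 0 and 1. Of these low genes Asz1 was called higher with no filter (edgeR adjusted p = 2.7e-04) and Mael was not.

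The other testis-expressed genes held the largest single change among genes with reads in both groups. Tex14 (ENSMUSG00000010342, chromosome 11, 87405065 to 87555823), which keeps the bridges between dividing germ cells open, had 6, 4, 0 and 4 reads with TGF-β alone and 501, 343, 296 and 359 with chaetocin. That is 0.164 ± 0.117 CPM against 21.5 ± 1.32 CPM (SD, n = 4), with no overlap. The log2 fold change was 6.96 ± 0.19 (SE), at an edgeR adjusted p of 1.6e-22 (Benjamini-Hochberg), and the pooled ratio was 129 with a 95% counting interval of 76.8 to 237. Usp17la (ENSMUSG00000054568, chromosome 7, 104857009 to 104862667), a deubiquitinating enzyme of a multigene family, had 1, 0, 2 and 0 reads and then 60, 35, 26 and 29, a ratio of 60.3 (20.3 to 296; edgeR, Benjamini-Hochberg adjusted p = 7.2e-12). Reads may be shared with its near-identical copies: Usp17lc had 0 to 2 reads per TGF-β library and 8 to 20 per chaetocin library, and Usp17ld 0 and then 4 to 10.

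Below the filter in this last set, Tex101, a surface protein of germ cells, went from 0 reads to 5, 3, 4 and 7, at least 7.64-fold higher. Dpep3, a membrane dipeptidase, had 1 read in all. Slc25a31, the ADP/ATP carrier of sperm, had 5 reads with TGF-β alone and 3 with chaetocin, a ratio of 0.724 (0.112 to 3.72). Rpl10l, the stand-in for ribosomal protein RPL10 in meiosis, had 0 reads, while its close relative Rpl10 had 5093 to 7776 per library, and how the counting divides reads between the pair is not known from the sources used here.

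**Figure D5:**
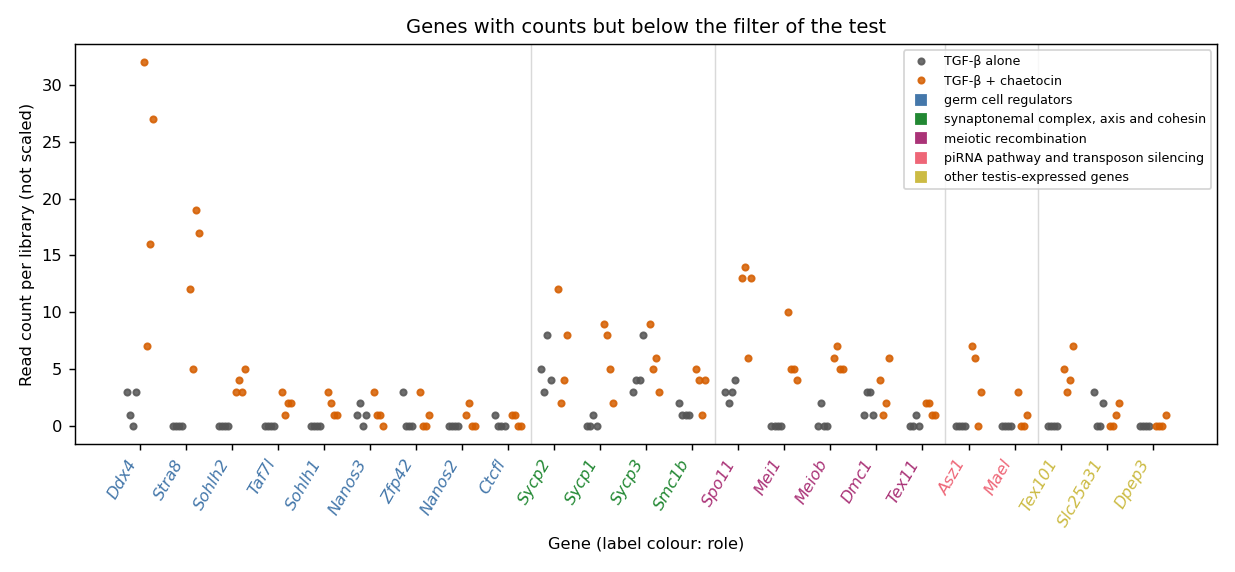
Read counts, not scaled for depth, of the 23 germline genes below the filter, 1 point per library, grey for TGF-β alone and orange for TGF-β with chaetocin, ordered by role. Ddx4 and Stra8 reach 32 and 19 reads with chaetocin, while the 4 TGF-β libraries hold at most 3 and 0.

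Levels can be compared between genes only per length. In FPKM, which divides reads by gene length and by depth, the median over the tested genes was 7.77 with TGF-β alone and 8.25 with chaetocin. With chaetocin Tdrd7 was at 17.3 ± 0.560 FPKM (SD, n = 4), Rec8 at 7.35 ± 0.614, Tex14 at 5.47, Tdrkh at 3.95, Mov10l1 at 1.89, Dppa3 at 1.73, Tdrd5 at 1.63 and Tdrd9 at 1.27 FPKM. Only Tdrd7 of these 8 lay above the median of the tested genes. Of the regulators of germ cell identity, Stra8 was at 0.715 FPKM and Dazl at 0.268 FPKM, both below Dppa3.

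Other germline genes, from 4 further lists of 91 genes of which 90 were matched by symbol, were counted for context. Of 33 tested, 25 were called higher and 4 lower (edgeR, Benjamini-Hochberg), with a median log2 fold change of 2.31. Over all tested genes 42% were called higher and 38.8% lower, with a median of 0.02, and among those under 1 CPM with TGF-β alone 86.9% were called higher, with a median of 2.93. Of 18 other piRNA pathway genes, 8 were tested and all 8 were higher. The call of Nkapl, at an edgeR adjusted p of 0.043, was lost with the replicate number as a block (0.053), with no filter (0.062), with DESeq2 (0.12), and without TGF-β replicate 3 or 4 or chaetocin replicate 1, 2 or 4 (0.091 to 0.17). Gtsf1, a zinc finger partner of PIWI proteins, went from 0 reads to 114, 116, 107 and 104, at least 177-fold higher, and Tdrd12, a tudor domain helicase, from 1 read in all to 28, 16, 23 and 25, a ratio of 111 (19.4 to 4432). Of 31 other meiosis genes 13 were tested, with 10 higher and 1 lower. Shoc1, a crossover gene, went from 1 read in all to 119, 75, 56 and 64, and Terb2, which ties telomeres to the nuclear envelope, from 0 reads to 16, 10, 11 and 10, at least 18.9-fold higher. Psmc3ip, a partner of the strand exchange enzymes, was lower by a log2 fold change of -0.36 ± 0.14 (SE), at an edgeR adjusted p of 0.022, a call lost under scaling by total count (edgeR adjusted p = 0.11) and without TGF-β replicate 2 or 3 or chaetocin replicate 4.

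The remaining lists were split. Of 20 other germ cell and pluripotency regulators 5 were tested, with 2 higher and 2 lower. Zp3, an egg coat protein, went from 0 reads to 75, 39, 55 and 46, at least 86.5-fold higher, and Taf4b, a gonadal transcription factor subunit, had a log2 fold change of 0.99 ± 0.08 (SE), at an edgeR adjusted p of 2.4e-12. Kit, the stem cell factor receptor, was lower, at 24.1 ± 2.13 CPM and then 4.86 ± 0.379 CPM (SD, n = 4; edgeR adjusted p = 3.8e-19). Prdm1, a repressor that specifies germ cells, was also lower, with a log2 fold change of -0.69 ± 0.23 (SE), at an edgeR adjusted p of 0.0087, a call lost without TGF-β replicate 4 or chaetocin replicate 1. Of 22 spermatid and sperm genes 7 were tested, with 5 higher and 1 lower. Spaca1, an acrosome protein, had a log2 fold change of 4.05 ± 0.41 (SE) and Akap4, of the sperm tail, 3.04 ± 0.13 (SE; edgeR adjusted p-values of 7.2e-10 and 4.9e-18). Odf2, found at sperm tails and also at centrosomes, was lower by a log2 fold change of -0.73 ± 0.04 (SE), at an edgeR adjusted p of 2.8e-16. Of the protamines and transition proteins, which pack DNA in late spermatids, Prm2 and Tnp1 had 0 reads in all 8 libraries. Prm1 went from 0 reads to 1, 2, 1 and 1, a rise called with no filter (edgeR adjusted p = 0.034), and Tnp2 from 0 reads to 2 in all, which was not called. Acrv1 and Pgk2 had 0 reads in all 8 libraries.

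Transcripts of 24 known silencers of germline genes were measured as well: 8 were higher, 12 lower and 4 not called, or 10 higher and 10 lower under scaling by total count. All 24 were at 1 CPM or more with TGF-β alone. Of all tested genes at such levels, 34.2% were called higher and 45.3% lower, and the silencers lie near these shares. The smallest p-values among the rises belonged to Atf7ip, a partner of the methyltransferase SETDB1, with a log2 fold change of 0.64 ± 0.03 (SE), at an edgeR adjusted p of 1.1e-16, and Trim28, a corepressor of zinc finger proteins, with 0.49 ± 0.02 (SE), at an edgeR adjusted p of 2.3e-16. Among the falls they belonged to Dnmt3a, which sets DNA methylation, with -1.14 ± 0.04 (SE), at an edgeR adjusted p of 4.2e-21, and Rnf2, the ubiquitin ligase of Polycomb complexes, with -0.82 ± 0.04 (SE), at an edgeR adjusted p of 3.1e-17. The median log2 fold change of the 24 was -0.14, against -0.08 over all tested genes at 1 CPM or more with TGF-β alone. In none of them did a called rise reach a fold of 2, and Dnmt3a was the only called fall that did.

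Markers of other cell types also differed between the groups. Over all tested genes 42% were called higher and 38.8% lower. Under 1 CPM with TGF-β alone these shares were 86.9% and 1.11%, and at 1 CPM or more 34.2% and 45.3%. Of 12 Sertoli and Leydig cell markers, the somatic cells of the testis, 5 were tested, with 4 higher and 1 lower. Their summed level was 70.4 to 72.5 CPM with TGF-β alone and 51.6 to 59.2 CPM with chaetocin, with Sox9, which kidney cells also express, at 66.0 and then 34.5 CPM. The direction turned without the leading pair, Sox9 and Star, at 0.528 to 1.06 CPM and then 12.9 to 14.4 CPM. Mean CPM was higher with chaetocin in 10 of the 12 and lower in 2. Fshr, Lhcgr, Rhox5 and Hsd3b1 had 0 reads in every TGF-β library and reads in all 4 chaetocin libraries. Of all 5288 rows at 0 with TGF-β alone, 15.8% had reads in all 4 chaetocin libraries, and 2666 had no read in any library. Insl3, which defines Leydig cells, had 0 reads in all 4 chaetocin libraries, and Amh, which defines Sertoli cells, 3 to 11. The summed level of 10 fibroblast markers was 1431 to 1517 CPM and then 505 to 647 CPM, and 82.1 to 95.4 and then 49.0 to 58.8 CPM without the leading pair, Vim and Col1a1. Of the 9 tested, 2 were higher and 5 lower. The sum of 10 epithelial markers, 5 higher and 4 lower, was 4665 to 4806 CPM and then 7297 to 7586 CPM. Without the keratins Krt8 and Krt18 the direction turned, at 2323 to 2352 CPM and then 1960 to 2059 CPM. For 11 leukocyte markers, 3 higher and 6 lower of 9 tested, the sums were 279 to 318 CPM and 160 to 193 CPM, and 181 to 205 and 115 to 137 CPM without Csf1r and C1qc. For 6 endothelial markers, 4 higher and 2 lower (Emcn and Erg), they were 52.6 to 59.2 CPM and 82.9 to 91.2 CPM. Without Cdh5 and Kdr the endothelial sums overlapped, at 32.3 to 38.1 CPM and 35.6 to 38.1 CPM. The part of these differences in the levels of the germline genes was not tested.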

How the data were processed

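Per the labels' protocols, RNA came off an RNeasy column and the library kit was SMARTER mRNA. The submitters' processing notes name the build GRCm38 (mm10). The aligner, counting program, annotation release and use of strand were not given in the sources used here. According to the file headers, the table deposited by the authors holds whole-number read counts and FPKM values per gene and library, a log2 ratio of group mean FPKM, and a p-value and FDR from a test the table does not name. The FPKM values are not a simple rescaling of the counts.

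All genes were tested on counts with edgeR 4.0.16, R 4.3.3 (quasi-likelihood F test, filterByExpr, TMM scaling, Benjamini-Hochberg, adjusted p under 0.05, 4 libraries against 4), and the germline rows were read from that fit. The SE is the size of the log2 fold change over the square root of F. A gene at 0 counts in a group was set to 3 counts over the group for its bound. The bound takes the count of the other group as exact and is not a 95% limit. Ratios carry a 95% exact binomial interval, which covers counting error only. A count of 3 is 0.128 to 0.200 CPM. The test was checked on simulated counts of genes well covered with TGF-β alone. Genes with few reads were left out of that check, which therefore does not cover the low germline genes. Coordinates and exon overlaps are from GENCODE M21, promoters from RefSeq.

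The genes and lists were chosen with earlier results of these data known. Values per library are given for every called germline gene with a mean of at least 1 CPM in a group, a fitted fold of at least 8 or 0 counts in a group. From each other germline list the 2 largest called rises and falls are named, and from the silencers the 2 smallest p-values in each direction. Alternatives were DESeq2 1.42.0 and its size factors, total-count scaling, other filters, limma 3.58.1 (voom, and log2(FPKM + 1) or log2(FPKM + 0.1)), a replicate block, a fold of 2, genes with overlapping exons left out, and each library left out.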

Additional observations from a re-analysis of the deposited data

Results flagged for a closer look

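For 44 groups of 4 libraries, 1 for each tested germline gene and treatment, the lowest and the highest CPM were compared with the other 3, and in 3 groups 1 library stood apart by Dixon's criterion, for which chance alone gives about 1 in 20 groups. Mei4 was at 1.70 CPM in TGF-β replicate 1, where the other 3 libraries were at 1.93 to 1.96 CPM. In chaetocin replicate 4 Mei4 was at 2.17 CPM, where the others were at 2.33 to 2.36 CPM. These values rest on 37 and 34 reads. Tdrd7 was at 58.9 CPM in chaetocin replicate 1, the most deeply sequenced library of its group, where the others were at 62.3 to 62.8 CPM.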

How the results depend on the processing

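The number of germline genes called higher was 19 in the test reported, 0 were called lower under any alternative, and 18 to 22 were called higher when 1 library was left out. With no filter it was 30 and with a filter of 1 CPM in 4 libraries 12. In limma it was 7 on log2(FPKM + 1), 7 on log2(FPKM + 0.1) and 31 with no FPKM filter, where fewer or more genes were tested. Leaving out the genes with overlapping exons gave 16. Requiring a fold of at least 2 left 2884 higher and 713 lower calls over all genes, 0 higher and 1 lower among the silencers, and 1 lower among the other germline genes. Of the other germline genes 49 were called higher with no filter, 42 with DESeq2 and 49 in limma with no FPKM filter, and 2, 2 and 2 were lower in the 3 FPKM fits. Nothing in the labels says whether the replicate numbers pair the libraries. Deviations of same-numbered libraries correlated at -0.01 to 0.03 and those of differently numbered libraries at -0.06 to 0.06, which cannot decide it. A replicate block gave 19 germline genes higher. Among single genes, Syce2 ranged from a log2 fold change of -0.00551 (without chaetocin replicate 3) to 0.293 (without chaetocin replicate 4), 36 values of 7 genes lost their call and 2 values of Mei4 gained one. Total-count scaling moved the median over all genes from 0.02 to 0.14 (log2). At 0 to 3 reads per library, differences under several-fold were not detectable.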
